A study of Rattus norvegicus with 8 samples.

Results

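Among 36741 nuclei of rat nodose ganglia, 460 nuclei (1.25%) carried transcripts of both sensory neuropeptide genes Calca and Tac1 together with at least 1 of the genes Mdfic2, Ranbp3l and Adamts16, and they are called the Calca Tac1 nuclei, or the population, below. The rule asked for at least 1 UMI (unique molecular identifier, 1 counted transcript) of Calca, at least 1 of Tac1, and a sum of at least 1 over the other 3 genes. Those 5 genes chose the nuclei, so their levels are given below as a description without a test.

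The nodose ganglia of Long Evans rats, 8 weeks old, experimentally naive and untreated, were profiled by single-nucleus RNA sequencing. Ganglia of 18 males and 18 females were grouped by side into pools of 6 rats, with 3 pools for each combination of labelled sex and side. Pool names join labelled sex, side and number: ML1 is the first pool labelled male and left, and FR3 the last labelled female and right. The pool is the replicate, and the left and right pools of 1 sex would draw on the same 18 rats, so sides are not independent animals and p-values measure only the spread between pools.

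The vagal sensory ganglia hold placode-derived nodose neurons and neural crest-derived jugular neurons, marked by Prdm12, which resemble the nociceptors of dorsal root ganglia. Calca encodes calcitonin gene-related peptide (CGRP), a vasodilator, and Tac1 encodes substance P and neurokinin A, which act on tachykinin receptors. Peptidergic fibres release these peptides centrally at their synapses and peripherally in the airways and other viscera, where they drive neurogenic inflammation.

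The promoters of Calca and Tac1 are shown because transcripts of these genes together define the population. Both are the 250 bases before the annotated start, from RefSeq on assembly GRCr8, written 5′ to 3′ on the strand of the gene. Capitals mark a match to TGACG, the core of the cAMP response element, on either strand.
Calca, chr1:178317530-178317779, minus strand: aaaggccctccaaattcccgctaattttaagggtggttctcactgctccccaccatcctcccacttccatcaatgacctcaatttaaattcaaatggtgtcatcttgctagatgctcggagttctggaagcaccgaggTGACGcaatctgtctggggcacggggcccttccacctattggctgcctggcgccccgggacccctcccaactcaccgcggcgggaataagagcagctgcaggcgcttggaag
Tac1, chr4:36645333-36645582, plus strand: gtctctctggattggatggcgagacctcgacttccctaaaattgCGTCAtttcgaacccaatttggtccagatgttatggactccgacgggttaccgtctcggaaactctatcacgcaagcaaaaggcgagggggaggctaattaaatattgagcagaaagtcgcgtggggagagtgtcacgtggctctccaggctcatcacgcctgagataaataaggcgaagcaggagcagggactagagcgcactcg
The Calca match begins 112 bases before the start. The Tac1 match lies on the opposite strand and begins 206 bases before the start. Of 33469 rat promoter windows of the same length, 18.2% held TGACG on either strand, and 1.59% held the full palindrome TGACGTCA, which neither window has. Such a match describes letters only.

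The population was small but deeply counted. Its nuclei held a median of 5502 UMIs (range 949 to 42532) and 2591 genes, against 2902 UMIs and 1669 genes in the other neurons. Of the 460 nuclei, 458 passed a neuron rule based on 12 neuronal genes, 1 passed the non-neuronal rule and 1 neither, and the population made up 1.43% of the 32053 neurons. After every nucleus had been thinned to 1500 UMIs, 121 nuclei still met the rule, so membership rested in part on depth. The 86 nuclei (18.7%) above 10563 UMIs belonged to the top 5% of all nuclei. No doublet caller was run. Results without the top 5% were computed instead for the shares and for the comparisons within the population. The comparisons with other neurons had no such setting and were repeated in nuclei of 2000 to 8000 UMIs, which lie under that cut. Of 4291 non-neuronal nuclei, 1 met the rule (0.0233%, exact binomial 95% interval up to 0.130%). Barcode combinations that recur in more than 1 sublibrary numbered 1865, and 48 of the 460 nuclei carried such a combination. The share of these nuclei in the 8 sublibraries, which are technical divisions, ran from 1.09% to 1.49%.

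Most nuclei with both peptide genes also carried at least 1 of the 3 jugular-type genes of the rule. Calca was detected in 1210 nuclei, Tac1 in 1567 and both in 517, of which 89.0% met the whole rule. Of all 36741 nuclei, 4797 carried at least 1 of those 3 genes. These shares describe genes of the rule, were not compared at matched depth and were not tested. Calca had a median of 2 UMIs per nucleus in the population, with a maximum of 58, and 170 nuclei had exactly 1. Tac1 had a median of 2.50 UMIs and a maximum of 28, and 139 nuclei had exactly 1. Adamts16, a secreted metalloprotease, was detected in 415 nuclei (90.2%), Ranbp3l, a Ran-binding protein, in 293 (63.7%) and Mdfic2, a MyoD family inhibitor domain protein, in 96 (20.9%). The most common combination was Ranbp3l with Adamts16 without Mdfic2, in 218 nuclei. Adamts16 alone marked 114 nuclei, Ranbp3l alone 32 and Mdfic2 alone 12. Mdfic2 with Adamts16 marked 41 nuclei, Mdfic2 with Ranbp3l 1, and 42 nuclei carried all 3.

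**Figure D1:**
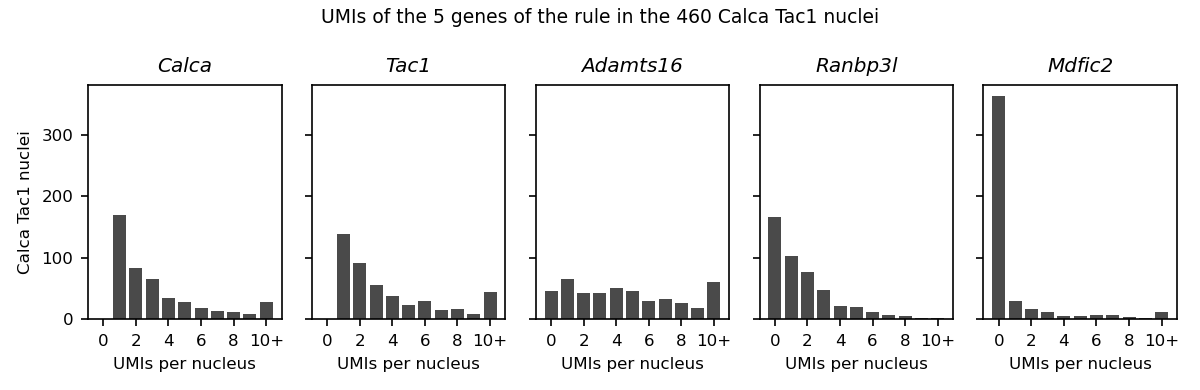
UMIs per nucleus of the 5 genes of the rule (x axis, UMIs per nucleus, with 10 and more together; y axis, number of the 460 nuclei). Calca and Tac1 pile up at low counts, with 170 and 139 nuclei at exactly 1 UMI, while 364 of the 460 nuclei lack Mdfic2.

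In CPM (UMIs of a gene per 1000000 UMIs) summed over each of the 12 pools, Calca ran from 290 to 705 with a median of 501 in the population, against 2.88 to 23.2 (median 7.38) in the other neurons. Tac1 ran from 323 to 746 (median 551) against 6.35 to 19.6 (median 12.1). Every pool of the population lay above every pool of the other neurons for both peptide genes, which the rule fixes. Ranbp3l ran from 113 to 383 against 8.51 to 29.1, Adamts16 from 322 to 963 against 23.7 to 107, and Mdfic2 from 54.2 to 431 against 5.91 to 54.1. Tafa1, a secreted chemokine-like protein listed as a marker of this type, went against the label: it ran from 0 to 132 CPM (median 23.1) in the population and from 8.08 to 110 (median 43.0) in the other neurons. It was detected in 38 of the 460 nuclei (8.26%).

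The Y-linked genes Kdm5d and Eif2s3y, summed over all nuclei of a pool, served to check the labelled sex. The library labelled ML1 had 2.13 CPM and the library labelled FL1 had 87.9 CPM. The remaining pools labelled male had 83.4 to 90.7 CPM and those labelled female 1.51 to 3.12 CPM. Both libraries thus went against their labels, and ML1 holds 134 of the 460 nuclei, so results are also given without both.

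The other markers bear on the jugular part of the label. All 7 jugular markers, among them Prdm12, Drgx, Runx1, Gfra3, Scn11a and Trpv1, were detected, with a summed level of 1592 CPM (1159 to 1934 over pools) against 465 in the other neurons. Scn11a alone gave 760 CPM of that sum, and 242 CPM in the other neurons, of which 44.2% carried it. Detection by itself separates little, since all 6 satellite glia markers were detected too. Of 6 nodose markers, Phox2a was at 0 and the sum was 53.1 CPM (0 to 95.7) against 227. The 5 sympathetic or chromaffin-type markers summed to 46.7 CPM, with Dbh at 0. Summed glial markers were 393 CPM for satellite glia and 623 CPM for myelinating Schwann cells, against 467 and 537 in the other neurons. Macrophage markers summed to 25.3 CPM and endothelial markers to 13.4 CPM. Skeletal muscle markers ranged from 74.7 to 1993 CPM over pools. The part of these cells in the results was not tested.

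Nuclei just inside and just outside the rule were described by markers that the rule did not use. Among the 11 nuclei with exactly 1 UMI in every condition, Gfra3 was detected in 36.4%. In the 218 nuclei with at least 2 UMIs in every condition the share was 76.6%, and in the remaining 242 it was 52.1%, at median depths of 7020 and 4117 UMIs. Just outside, Gfra3 was detected in 25.8% of 326 nuclei with Calca and the 3-gene set but no Tac1, in 27.4% of 434 nuclei with Tac1 and the 3-gene set but no Calca, and in 35.1% of 57 nuclei with both peptides and none of the 3 genes. The nociceptor sodium channel Scn10a did not separate inside from outside: it was 618 CPM in the 11 nuclei at the edge and 1374 CPM in the whole population, and 1741, 1188 and 667 CPM in those outside groups, in the same order. Their median depths were 3885, 3406 and 3527 UMIs, against 5502 in the population. The nuclei lacking Tac1 carried 473 CPM of Tafa1, against 47.0 in the population. Non-neuronal nuclei had Gfra3 in 1.51%, at a median depth of 1584 UMIs.

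The population's share differed widely between pools, from 5 of 2029 nuclei in ML3 (0.246%, 95% interval 0.0801% to 0.574%) to 134 of 3457 in ML1 (3.88%, 3.26% to 4.57%). FL2 was the other high pool, with 57 nuclei (3.28%). The other male-labelled left pool, ML2, had 1.28%, and the male-labelled right pools had 0.863%, 0.628% and 1.42%. The female-labelled left pools FL1 and FL3 had 0.455% and 1.18%, and the female-labelled right pools had 1.14%, 0.351% and 1.24%. Within ML1 the 4 barcoding wells lay between 3.78% and 3.97%, so the high share recurred in each well. The intervals cover counting error only, and pools differed by far more than that.

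**Figure D2:**
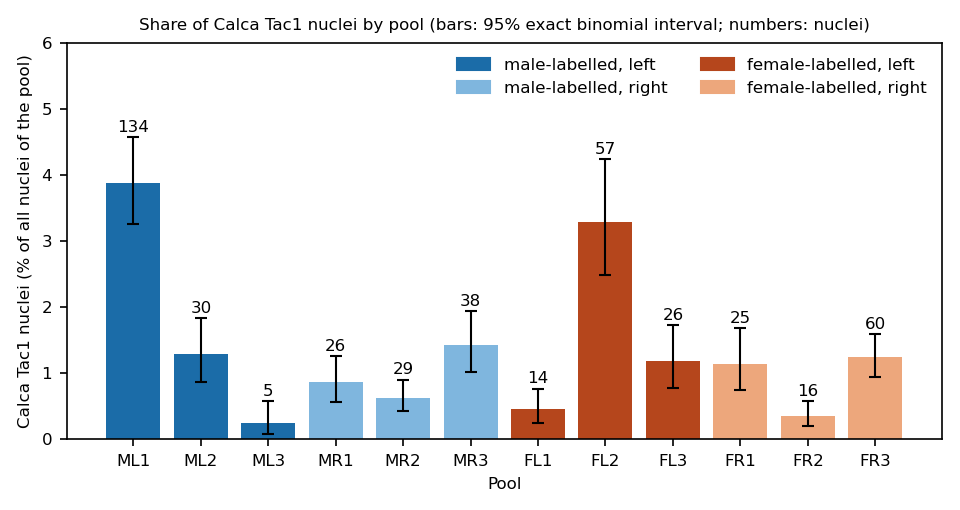
Share of each pool's nuclei that belong to the population (y axis, percent; x axis, pools by labelled sex and side), with exact binomial 95% intervals. ML1 at 3.88% and FL2 at 3.28% stand above the other pools, and ML3 at 0.246% is lowest.

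Neither side nor labelled sex showed a difference in share beyond the spread between pools. The share of all nuclei was 1.72% ± 1.51 (SD, n = 6 pools) on the left and 0.941% ± 0.403 (n = 6) on the right, a difference of -0.779 percentage points (exact permutation test over 400 relabellings, two-sided p = 0.345, adjusted over 3 comparisons 0.578). As a share of neurons, left pools had 1.94% ± 1.73 and right pools 1.05% ± 0.403 (n = 6 each, exact permutation p = 0.385, adjusted 0.578). Male-labelled pools had 1.56% ± 1.48 and female-labelled pools 1.43% ± 1.19 of neurons (n = 6 each, exact permutation p = 0.805). The groups overlapped in each case, and the smallest p this design allows is 0.005. Without ML1 the left to right difference shrank to -0.348 percentage points of all nuclei, and without FL2 to -0.468. The sex difference turned to 0.451 percentage points higher in female-labelled pools without ML1, and to 0.634 without both ML1 and FL1.

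Genes outside the rule were compared between the population and the other neurons of the same pools, in 11 pools (ML3 had 5 such nuclei and was left out). Among the called differences were higher Npy1r, Gfra3, Asic1 and Prdm12 and lower levels of nodose neuron genes. Of 12200 genes tested, 334 (2.74%) were called higher and 531 (4.35%) lower, 7.09% in all, at an adjusted p under 0.05 (edgeR) and at least a 2-fold difference. Without the libraries labelled ML1 and FL1 the count was 839. From here on, levels are CPM on normalised library sizes, as mean ± SD over the 11 pools, differences are log2 ± SE, and higher or lower means called by this rule. The reference neurons were counted to a lower median depth, and reference nuclei that met part of the rule stayed in.

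Gfra3, the co-receptor for the growth factor artemin, was 196 ± 77.6 CPM in the population (lowest 67.0, median 198, highest 327) and 6.43 ± 3.90 (2.09, 6.05, 15.8) in the other neurons, a difference of 4.87 ± 0.22 (adjusted p = 3.54e-21). Prdm12, the transcription factor needed for nociceptor development, was 103 ± 32.5 CPM (35.9, 114, 143) against 7.77 ± 5.29 (1.49, 7.10, 19.0), a difference of 3.68 ± 0.23 (adjusted p = 1.22e-16). Every pool of the population lay above every pool of the other neurons for both genes. Gfra3 was detected in 63.7% and Prdm12 in 47.2% of the 460 nuclei, against 1.51% and 0.676% of non-neuronal nuclei.

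The list of jugular and neural crest nociceptor identity had 9 tested genes besides those of the rule, Prdm12 among them. Of these 9, 4 were higher, including Prdm12, and 1 lower, with a median difference of 0.54 against -0.05 over all genes tested. Drgx (1.51) and Pou4f1 (1.21), homeobox genes of somatosensory neurons, were higher, and Pou4f1 was low in both populations (7.81 against 3.15 CPM). Etv1, an ETS transcription factor, was lower (130 against 326 CPM, -1.43). Runx1 reached 154 against 107 CPM (0.54) and did not pass the 2-fold limit. Tafa1 differed by -0.24 (adjusted p = 0.672).

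The nodose list went the other way. Of its 11 tested genes, of 13 listed, 10 were lower and none higher, with a median of -1.98. Ntrk2, the receptor for brain-derived neurotrophic factor, was 281 ± 117 CPM (148, 270, 485) against 1089 ± 68.1 (949, 1103, 1199), and no pool overlapped. The serotonin receptor subunits Htr3b (50.6 against 215 CPM, -2.05) and Htr3a (-1.61), the ATP-gated channel P2rx2 (29.0 against 101 CPM, -1.90), the gut hormone receptors Glp1r (-2.36) and Cckar (-2.24), Gpr65 (-2.61), Tbx3 (-2.09) and Hoxb5 (-1.55) were among the lower genes. Chrnb4, a nicotinic receptor subunit, was the exception at 0.90, under the 2-fold limit.

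Besides Calca and Tac1, 3 of 17 listed peptide precursors had enough counts to be tested. Adcyap1, which encodes the peptide PACAP, was 158 ± 61.2 CPM (78.3, 143, 269) against 43.7 ± 6.99 (34.1, 43.5, 55.6), a difference of 1.87 ± 0.12 (adjusted p = 8.72e-17), and it was detected in 53.5% of the nuclei. Calcb, which encodes the second CGRP, was higher (24.4 against 2.16 CPM, 3.53), but it shares near-identical sequence with Calca and its counts are uncertain. Cartpt was lower (13.9 against 52.6 CPM, -1.96). Vip, Nppb and Trh were detected in none of the 460 nuclei, which allows a share of up to 0.799% with a UMI. Gal was detected in 6 nuclei, Sst in 3, and Penk and Npy in 2 each.

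Genes for peptide processing and dense-core vesicles differed little as a group: 2 of 16 were higher, none lower, and the median was 0.12. Scg2, secretogranin II, was 788 ± 190 CPM (530, 836, 1035) against 296 ± 52.1 (232, 293, 413), without overlap (1.41). Vgf, a granin-like peptide precursor, was 42.7 against 23.0 CPM (1.02). Without ML1 and FL1, 1 of the 16 genes was called higher. Of 4 tested receptors for CGRP, tachykinins and PACAP, the substance P receptor Tacr1 was lower (2.95 against 16.1 CPM, -2.09) and none was higher. In nuclei of 2000 to 8000 UMIs, 1 of the 4 was higher and 2 lower. Ramp1, Ramp2 and Vipr1 have no entry by symbol in the gene list used here.

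Among TRP and other transducer channels, 6 of 14 were higher and 2 lower, with a median of 0.34. Asic1, a proton-gated channel, was 281 ± 98.5 CPM (174, 248, 466) against 19.2 ± 7.21 (9.95, 18.4, 35.6), a difference of 3.84 ± 0.14 (adjusted p = 9.39e-25). The irritant receptor Trpa1 was 840 ± 313 CPM against 315 ± 26.9 (1.40), with 1 pool of the population, at 186 CPM, below all pools of the other neurons. The capsaicin receptor Trpv1 was 188 ± 40.3 CPM (133, 187, 239) against 79.5 ± 7.62 (66.2, 80.6, 88.7), without overlap (1.26). Trpa1 was detected in 73.3% and Trpv1 in 63.7% of the nuclei. The cold receptor Trpm8 (92.8 against 31.8 CPM, 1.40), Asic3 (1.01) and Tmem100, a partner of Trpa1 (1.85), were also higher. Piezo1 was lower (-2.15), and Piezo2, the touch channel, differed by -0.22 (adjusted p = 0.147).

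Voltage-gated sodium channels divided, with 2 of 12 higher, 2 lower and a median of -0.05. Scn11a, the channel Nav1.9 of nociceptors, was 697 ± 214 CPM (366, 779, 957) against 251 ± 38.7 (200, 247, 329), without overlap (1.46). The beta subunit Scn4b was higher (78.6 against 27.6 CPM, 1.49), and Scn3a was lower (-1.19). Scn10a was 1358 against 1097 CPM (0.30), short of 2-fold, and was detected in 96.7% of the nuclei.

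Growth factor and cytokine receptors included 3 of 10 higher and 2 lower (median 0.56). Beside Gfra3, the itch cytokine receptor Il31ra was called higher (1.52), but it was higher in only 5 of 11 pools and lower in 6. Ntrk3, the neurotrophin-3 receptor, was lower together with Ntrk2 (46.2 against 111 CPM, -1.18).

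Inhibitory G-protein-coupled receptors had 6 of 11 higher and none lower, with a median of 1.26. Npy1r, the Y1 receptor of neuropeptide Y, was 88.0 ± 40.2 CPM (20.9, 92.7, 156) against 2.78 ± 2.02 (0.663, 2.31, 6.78), a difference of 4.93 ± 0.26 (adjusted p = 7.10e-19). Its pools did not overlap, and it was detected in 33.9% of the 460 nuclei. The GABA-B subunit Gabbr2 was 693 ± 148 CPM against 203 ± 54.8 (1.78), also without overlap. The kappa opioid receptor Oprk1 (51.6 against 10.4 CPM, 2.29), the delta receptor Oprd1 (1.86), the nociceptin receptor Oprl1 (1.26) and the somatostatin receptor Sstr2 (17.1 against 2.59 CPM, 2.88) were higher. The mu opioid receptor Oprm1 was at 433 against 650 CPM (-0.60), which did not pass the 2-fold limit. Without ML1 and FL1, 5 of 10 tested genes of this list were higher. Npy1r and Sstr2 were scarce in the other neurons (2.78 and 2.59 CPM), so they entered the test largely through the population.

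Receptors for inflammatory mediators had 3 of 13 higher and 5 lower (median -0.51). Bdkrb2, the bradykinin B2 receptor, was 55.3 ± 20.6 CPM (12.4, 55.6, 84.8) against 6.22 ± 1.94 (4.67, 5.09, 10.5), without overlap (3.13). Ptger1 (1.22), a prostaglandin E2 receptor, and Tlr4 (1.29), the lipopolysaccharide receptor, were higher. The thrombin receptor F2r (74.6 against 291 CPM, -1.81), Cysltr2 (-1.73), Agtr1a (-1.82), S1pr3 (-1.19) and Ptger4 (-1.18) were lower. Genes of dorsal root ganglion subtypes had 2 of 13 higher, Kit (1.58) and Mrgprx3 (2.33), and 3 lower, Tafa4 (-2.43), Th (-1.94) and Tafa2 (-1.38). Of 6 tested injury and immediate early genes, Jun was higher (54.1 against 19.5 CPM, 1.46) and Gadd45a lower (-1.20). Neither tested vesicular transporter was called.

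**Figure D3:**
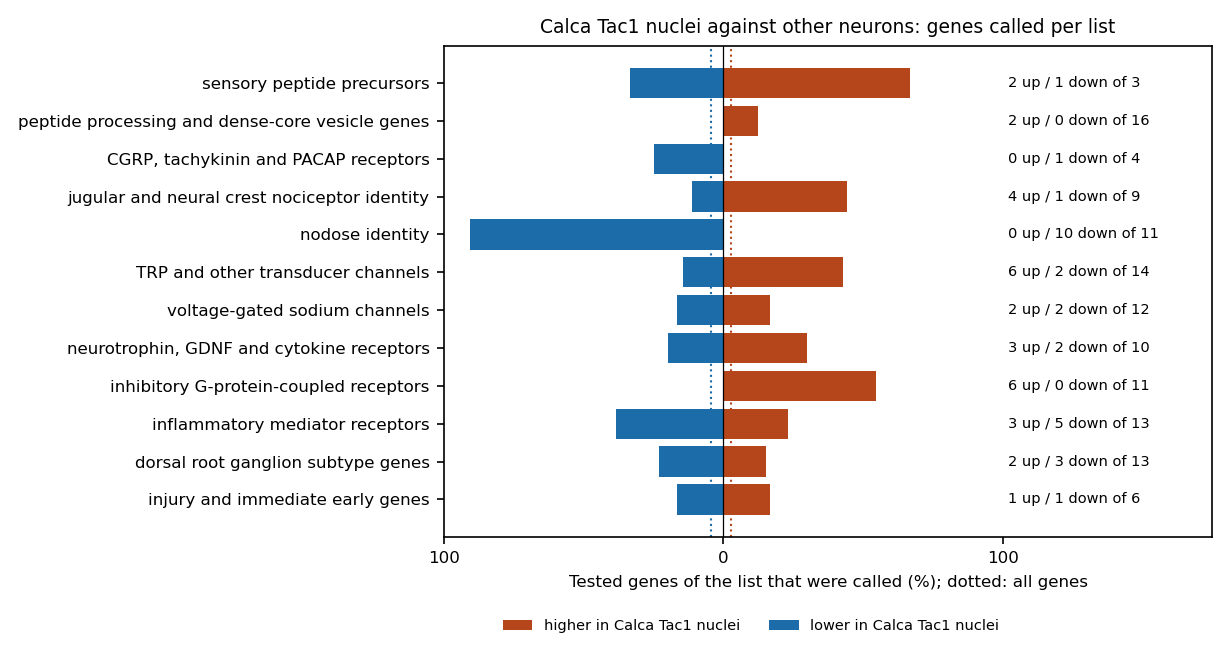
Percent of each list's tested genes that were called against the other neurons (bars to the right, higher in the Calca Tac1 nuclei; bars to the left, lower; x axis, percent), with the counts beside them and dotted lines at the shares of all genes, 2.74% and 4.35%. The nodose bar runs furthest to the left, with 10 of 11 genes lower, and the inhibitory receptors have 6 of 11 higher and none lower.

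Among all called genes, the 12 with the largest positive difference, at 20 CPM or more and higher in each of the 11 pools, also included Aqp1, a water channel (64.2 against 2.56 CPM, 4.54), Sytl3, a Rab27 effector of vesicle release (109 against 4.97 CPM, 4.38), Mmp25, a membrane metalloprotease (49.0 against 3.35 CPM, 3.79), Pkhd1, fibrocystin (97.8 against 8.32 CPM, 3.52), Vwc2, a secreted BMP-binding protein (34.1 against 3.47 CPM, 3.34), and Calb2, the calcium-binding protein calretinin (106 against 10.6 CPM, 3.33). Racgap1 (67.5 against 6.47 CPM, 3.32), a GTPase-activating protein of cytokinesis, lies 2 genes from Asic1 in GRCr8. The 8 lowest were Rspo4, a Wnt agonist (1.26 against 21.5 CPM, -3.09), Hoxb4 (-2.64), the heparan sulfate enzyme Hs3st4 (182 against 1063 CPM, -2.63), Gpr65, Slc44a5 (-2.60), the guidance cue Sema3e (-2.59), the adhesion molecule Cntn5 (439 against 2207 CPM, -2.47) and Tafa4. For these 20 genes no pool of the population overlapped the pools of the other neurons, a property that the choice of genes partly fixes. Aqp1 and Calcb were scarce in the other neurons (2.56 and 2.16 CPM), so they too entered the test largely through the population.

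**Figure D4:**
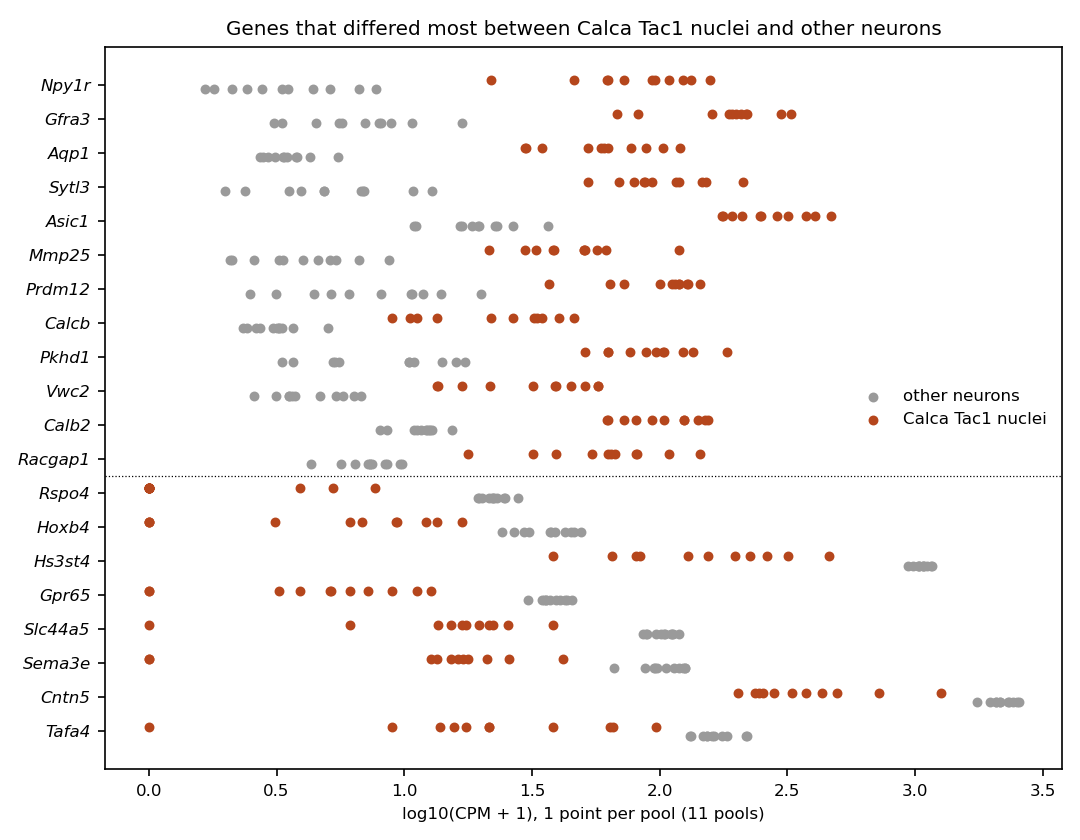
Levels of the genes named for the comparison with the other neurons (x axis, log10 of CPM + 1; points, the 11 pools of the Calca Tac1 nuclei and of the other neurons; genes above the dotted line are higher, those under it lower). Both sets of pools lie apart for each gene, with Npy1r at 20.9 to 156 CPM in the population and 0.663 to 6.78 CPM in the other neurons.

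A closer reference was the 3318 neurons with at least 1 of the 3 jugular-type genes and neither peptide gene. They share part of the rule and are shallower (median 3413 UMIs). Of 8476 genes tested, 158 (1.86%) were higher and 238 (2.81%) lower in the population, 4.67% in all (edgeR, same limits, 11 pools), and 380 genes were called without ML1 and FL1. Gfra3 was 204 ± 81.2 CPM (69.8, 205, 343) against 14.6 ± 8.48 (2.07, 14.9, 29.7), a difference of 3.65 ± 0.24 (adjusted p = 2.79e-12). Asic1 (293 against 28.0 CPM, 3.39), Npy1r (91.8 against 6.33 CPM, 3.83), Aqp1 (67.4 against 3.60 CPM, 4.04), Prdm12 (107 against 21.6 CPM, 2.21) and Bdkrb2 (57.5 against 9.02 CPM, 2.67) were higher; both comparisons share the counts of the Calca Tac1 nuclei. Further leading genes were Rgs8, a G-protein regulator (49.3 against 5.64 CPM, 2.95), Nptx1, a neuronal pentraxin (246 against 32.2 CPM, 2.85), and Cpxm2, a carboxypeptidase-like protein (114 against 17.0 CPM, 2.79). Aqp1, Npy1r and Rgs8 were scarce in this reference (highest pools 6.87, 13.6 and 12.6 CPM), and Bdkrb2 had a mean of 9.02 CPM there. These genes entered the test through the population and could hardly be called lower. Other higher genes with low levels in the reference share this limit in part.

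Lower against the same reference were Rspo4 (-2.99), Marchf1, a ubiquitin ligase (39.1 against 230 CPM, -2.52), Hoxb4 (-2.36), Otof, otoferlin, a calcium sensor of exocytosis (20.9 against 94.8 CPM, -2.23), Slc44a5 (-2.20), Hs3st4 (-2.20), Rgs6 (218 against 943 CPM, -2.16) and Csmd3 (21.5 against 93.8 CPM, -2.12). Of 9 tested nodose genes 8 were lower and 1, Chrnb4 (1.06), was higher, with a median of -1.55 against 0.00 over all genes. The Chrnb4 call was lost with DESeq2, without ML1 and FL1, and in nuclei of 2000 to 8000 UMIs, where no gene of the list was called higher. The jugular list was divided against this reference: of 7 tested genes 2 were higher and 2 lower, with a median of 0.15. Tafa1 was lower here, at 50.9 ± 48.8 CPM against 200 ± 112 (-2.15 ± 0.34, adjusted p = 1.35e-05), lower in 10 of 11 pools. Of 12 tested transducer channels 2 were higher, Trpa1 among them (872 against 428 CPM, 1.02), and 1 was lower. Of 15 processing genes 2, Scg2 (1.50) and Vgf (1.16), were higher. In inhibitory receptors 2 of 6 were higher, Npy1r and Gabbr2 (1.15).

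The population was not uniform, and nuclei with and without Mdfic2 differed in many genes. The 96 nuclei with Mdfic2 (median 6996 UMIs) and the 364 without it (median 5160 UMIs) were described by CPM over the pooled nuclei, with genes chosen after their values were seen and no test. Nuclei with Mdfic2 had more of the anoctamin Ano3 (369 against 109 CPM, higher in 12 of 12 pools), the vesicle protein Rph3a (379 against 110 CPM, 10 of 12), the neurofilament Nefh (598 against 343 CPM, 12 of 12), Piezo2 (457 against 190 CPM, 11 of 12), the copine Cpne6 (168 against 51.2 CPM, 11 of 12), Trpm8 (193 against 49.2 CPM, 8 of 12) and Tafa1 (158 against 9.02 CPM, 9 of 12). They had less Npy1r (19.2 against 113 CPM, higher in 0 of 12), Shisa9 (50.3 against 171 CPM, 0 of 12), Pkhd1 (32.3 against 125 CPM), the potassium channel Kcnc2 (138 against 480 CPM) and Adcyap1 (83.8 against 187 CPM). Prdm12 (108 against 106 CPM), Gfra3 (168 against 205 CPM) and Asic1 (263 against 321 CPM) differed by less. The pool tallies rest on few nuclei: Mdfic2 was detected in 1 nucleus each of ML3 and FR2, 2 of ML2, 3 of FL1 and 4 of MR1. ML3 had 0 nuclei with Npy1r, so it could not count as higher for that gene.

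**Figure D5:**
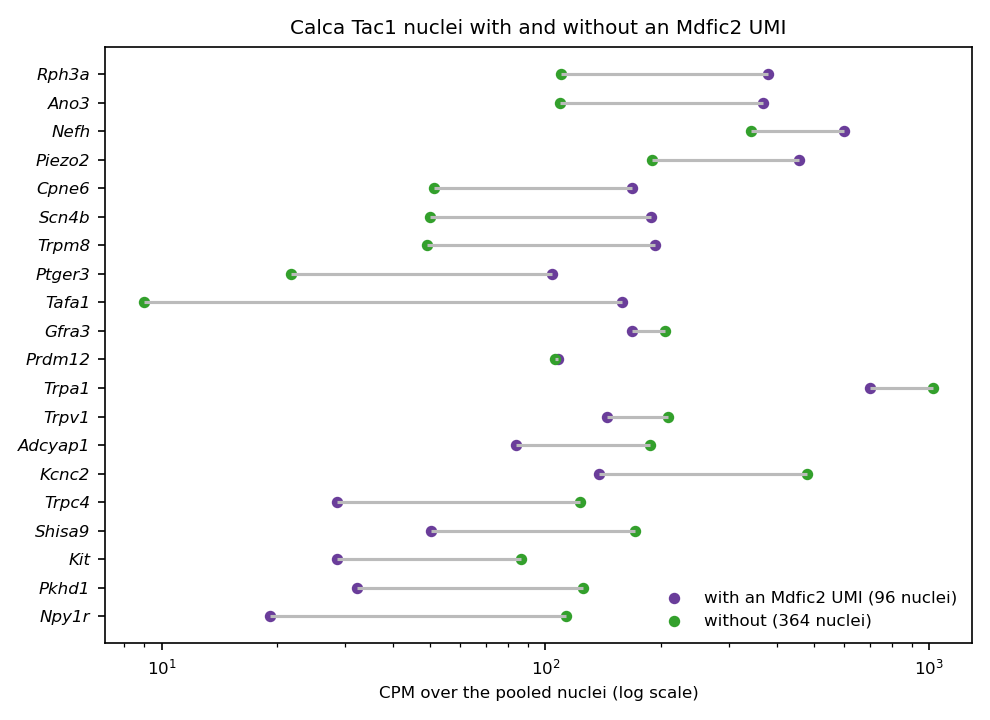
Levels of 20 genes in the Calca Tac1 nuclei with and without a UMI of Mdfic2 (x axis, CPM over the pooled nuclei, log scale; points, the 96 nuclei with and the 364 without, joined by a line). Ano3, Nefh and Piezo2 are higher and Npy1r and Shisa9 lower in the 96 nuclei with Mdfic2.

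For several of these genes, nuclei with and without Npy1r differed in the opposite sense. Mdfic2 was at 27.0 CPM in the 156 nuclei with Npy1r and 170 CPM in the 304 without it, at median depths of 5537 and 5436 UMIs. Pkhd1 (182 against 60.6 CPM), Shroom3, an actin regulator (93.5 against 24.5 CPM), the receptor tyrosine kinase Kit (122 against 45.8 CPM) and Adcyap1 (236 against 122 CPM, higher in 11 of 11 pools) went with Npy1r, and Rph3a (78.2 against 231 CPM) and Nefh (258 against 485 CPM) were higher in 0 of 11 pools. Trpm8 did not mirror the Mdfic2 division, at 116 CPM with Npy1r and 70.3 without (higher in 4 of 11 pools), and neither did Tafa1, at 45.9 and 47.6 CPM. Only 10 nuclei had both Mdfic2 and Npy1r. After thinning to 1500 UMIs, Npy1r was detected in 2.11% of nuclei with Mdfic2 and 15.5% of those without, against 10.4% and 40.1% before. Over pools the share of nuclei with Mdfic2 ran from 6.25% to 31.0%, and that with Npy1r from 0% in ML3 (0 of 5 nuclei) to 50.0% in FR2. Outside the rule, in nuclei with Calca and the 3-gene set but no Tac1, Npy1r was 7.60 CPM with Mdfic2 and 62.0 without, and Ano3 733 and 277. Trpm8 (85.8 with Mdfic2, 145 without) and Tafa1 (383 and 568) ran the other way in those nuclei. In nuclei with Tac1 and the 3-gene set but no Calca, Npy1r was 4.25 and 41.8 CPM and Ano3 401 and 118 CPM, while Nefh ran the other way (438 and 532 CPM).

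No gene was called between right and left within the population. Of 5255 genes tested 0 passed (0%, edgeR), with 348 at an unadjusted p under 0.05, and DESeq2 also called 0, with 205 at an unadjusted p under 0.05. The smallest p-values belonged to Itpr3, an inositol trisphosphate receptor of intracellular calcium release (32.3 ± 38.0 CPM left, 87.3 ± 48.4 right, 1.53), Kctd12, a GABA-B auxiliary subunit (39.0 and 137 CPM, 1.82), and Tgfbr3 (97.5 and 155 CPM, 0.82), each with an adjusted p of 0.393. For Itpr3 the sides overlapped, with ML2 at 96.8 CPM above the 3 female-labelled right pools at 37.5 to 50.7 CPM. Without ML2 edgeR called 75 genes, without FR1 it called 1, and without both ML1 and FL1 it called 0.

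Between the labelled sexes, of 5255 genes, 23 (0.438%, edgeR) were lower in female-labelled pools and none higher. Without the libraries labelled ML1 and FL1, 259 genes were called, 221 lower and 38 higher in female-labelled pools.

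Reln, reelin, was 220 ± 74.9 CPM in the male-labelled and 61.9 ± 39.5 CPM in the female-labelled pools (-1.61 ± 0.28, edgeR adjusted p = 0.0213), and the labelled groups overlapped, with ML1 at 96.2 and FR2 at 122 CPM. Other called genes, with adjusted p from 0.0325 to 0.0441, were Stard13, Itpr3, Sox6, Tcf7l2, Adgrb3, Mamdc2, Pde7b, Gpm6a, Kcnh8 and Grik2. ML1 was the lowest of the 5 male-labelled pools in these 11 genes. Ntrk2 was the called gene of the nodose list, at 418 ± 109 against 231 ± 80.4 CPM (-0.85, adjusted p = 0.0443).

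All 23 called genes were more than 2-fold higher in non-neuronal nuclei than in the population. The share of all 5255 tested genes with such a difference was not computed, so this count has no background. Summed levels of 12 glial markers in the population were 811 to 1874 CPM in male-labelled and 537 to 1175 CPM in female-labelled pools. In the other neurons they were 937 to 1194 CPM and 718 to 1344 CPM, and the labelled groups overlapped in both populations. Within the population the overlap came from ML1, at 811 CPM. Without ML1 and FL1 the population had 1240 to 1874 CPM in male-labelled and 537 to 1175 CPM in female-labelled pools, without overlap. The other neurons still overlapped without both, at 951 to 1194 CPM and 718 to 1344 CPM. The part of glial RNA in this comparison was not tested. The count fell to 0 without nuclei of the top 5% of UMIs and without MR2, MR3 or FL3, and it rose to 233 without ML1. DESeq2 called 41 genes, 40 of them lower. No gene was called for the interaction of side and labelled sex (0 of 5255, 0%, edgeR, 173 at an unadjusted p under 0.05, and 0 by DESeq2 with 46). Its smallest p-values were those of Med12l (-1.32), Snx2 (-1.61) and Cds2 (1.00), each with an adjusted p of 1.00.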

How the data were processed

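Nuclear RNA of 12 pools was barcoded with Evercode version 2 kits, per the labels' protocols, and sequenced as 8 sublibraries, which are the samples of the deposit. The authors deposited raw UMI counts per nucleus and gene with a table naming each nucleus's pool. Sex, side and number were read from those pool names. The submitters' processing notes name mRatBN7.2, R 4.3.2 and Seurat 4.1.3, and no aligner is given in the sources used here. All 30560 genes of the matrix held 139965360 UMIs, 3274756 of them in the 460 nuclei (37099 to 1014918 per pool), so low genes rest on few counts.

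The members and lists were chosen with earlier results of these data known. Neurons had 3 or more UMIs over 12 neuronal genes and more than over 26 matched non-neuronal genes. Counts were summed per pool and population and tested with edgeR 4.0.16 (quasi-likelihood test, TMM, filterByExpr, Benjamini-Hochberg) in R 4.3.3, with pool as a block between populations and side plus labelled sex within the 460 nuclei. Pools with under 10 nuclei were left out. Genes were named by size: the 12 highest and 8 lowest log2 differences among called genes with 20 CPM or more that went 1 way in every pool, and up to 12 by p, or 3 where none was called, for side, sex and interaction. Shares were tested by exact permutation (scipy 1.17.1). Shares of nuclei have exact binomial (Clopper-Pearson) 95% intervals, which cover counting error only. Alternatives were DESeq2 1.42.0, filters, stricter rules, thinning and left-out pools. The procedure was tested on simulated counts. Some genes are not reported here.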

Additional observations from a re-analysis of the deposited data

Results flagged for a closer look

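Of 64 groups of pools checked over 32 measures, 3 held a pool far from the others by Dixon's criterion, which chance meets in about 1 group in 20. In ML3, 0% of the population carried Npy1r (0 of 5 nuclei), where the other 5 left pools had 26.7% to 35.7%. Prdm12 was 71.7 CPM in the population of ML2, where the other 4 left pools tested had 111 to 118 CPM. Rspo4 was 6.69 CPM in the population of FR3 and 0 in each of the other right pools. The population held 454154 UMIs in FR3 and 114913 to 240852 in the other right pools, so this value rests on very few counts.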

How the results depend on the processing

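The calls against the other neurons ranged from 792 to 1098 over the alternatives and those against the jugular-gene neurons from 359 to 558, except 684 without a filter on low counts, and the 20 genes named by size in each comparison kept direction and call wherever tested. Counts per list moved more. Against the other neurons, the jugular list fell from 4 higher to 3 with DESeq2, under the stricter rule and at matched depth (2000 to 8000 UMIs), transducer channels from 6 to 5 without ML1 and FL1 and to 4 at matched depth, inflammatory receptors from 3 to 2 without ML1 and FL1, and from 5 lower to 3 under the stricter rule, and growth factor receptors from 3 to 2 with neurons set at 10 UMIs. The nodose list kept 10 lower in each of these. Against the jugular-gene neurons, transducer channels went from 2 higher to 1 with DESeq2. Comparisons within the population depended on processing. For side, 58 genes were called without a filter, and 0 to 75 with 1 pool left out. For labelled sex, 41 were called by DESeq2, 184 without a filter, 0 under the rule of 2 UMIs per condition, 0 without the top 5% of UMIs, 35 with all 12 pools (a setting chosen after seeing the data), 259 without ML1 and FL1, and 0 to 233 with 1 pool left out. The interaction had 7 calls under the stricter rule. The labelled-sex difference in share of neurons (-0.125 percentage points) turned to 0.198 under the stricter rule, 0.00191 without the top 5% of UMIs and 0.634 without ML1 and FL1, and ran from -0.585 to 0.451 with 1 pool left out, where it was above 0 without ML1 (0.451), FL1 (0.0573) or FR2 (0.0689). The side differences in share ran from -1.07 to -0.348 of all nuclei and from -1.22 to -0.383 of neurons. With the replicate number as a block, side gave 0 calls (357 at an unadjusted p under 0.05). Whether left and right pools of 1 number share rats was not settled: 1 of 5 pairs had correlated deviations over 0.1, and 3 of 5 left pools correlated best with their own number. Deviations were taken from means of very few pools, and with ML3 left out those of ML1 and ML2 mirrored each other, so this check cannot decide it. The comparison with the 57 peptide-positive nuclei lacking the 3 genes was not run, because only ML1, with 14, had 10 or more of them. Depth limits what low genes can show.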
